A study of Mus musculus with 6 samples.

Results

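The TNF superfamily ligands are trimeric proteins, mostly anchored in the cell membrane, that signal to neighbouring cells. They bind receptors of the TNF receptor superfamily, which act through TRAF adaptors and NF-kB or, for death receptors, through caspases. Regulatory T (Treg) cells, CD4 T cells that restrain immune responses under the transcription factor Foxp3, carry several of these receptors and make some of the ligands. The 10 ligands described here were Tnfsf14, Tnfsf13b, Tnfsf8, Tnfsf11, Lta, Ltb, Tnf, Tnfsf10, Fasl and Cd40lg, out of 12394 genes measured. They were taken by gene symbol from probe sets annotated to exactly 1 gene. Where a gene had several, its probe set was chosen by the highest mean log2 intensity over the 6 arrays. That mean does not use the group labels. The genes themselves were selected with earlier results of the same comparison known, so their changes below describe these arrays and are not independent support for anything.

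Treg cells were sorted as CD4+CD25+YFP+ cells from spleen and lymph nodes of mice, 3 mice per group. The arrays labelled GATA3KO came from Gata3F/F Foxp3YFP-Cre mice, with both alleles of Gata3 floxed. The arrays labelled WT came from Gata3F/+ Foxp3YFP-Cre mice, which keep 1 intact allele and carry the same Cre, a recombinase expressed from the Foxp3 locus, so the control is a heterozygote and not a mouse without Cre. Gata3 encodes a zinc finger transcription factor of T cell development. The sources used here give no age or sex for the mice. Nothing states separate sorts or days, so p values measure only the spread between these arrays. Values are log2 intensities of Affymetrix probe sets, each with a precision limited by the small number of arrays.

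The single Gata3 probe set read 9.83, 9.98 and 9.71 in the arrays labelled GATA3KO, against 9.57, 9.41 and 9.47 in those labelled WT. It was thus higher, not lower, in the arrays labelled GATA3KO (log2 change 0.35 ± 0.07, SE, adjusted p = 0.0387 by limma), so the directions given here depend wholly on the labels. The Gata3 call passed in 2 of 6 fits with an array left out. It was lost without WT replicate 2 or 3 and without GATA3KO replicate 1 or 2 (adjusted p from 0.0751 to 0.182), as well as without the intensity trend (0.15). The sources used here do not name the floxed exons of Gata3, and a probe set lying elsewhere in the gene cannot check the deletion. The T cell markers Cd3e (9.68 ± 0.06 against 9.67 ± 0.08, SD, n = 3 each), Cd4 (8.23 ± 0.04 against 8.03 ± 0.17) and the Treg markers Il2ra (9.07 ± 0.06 against 8.88 ± 0.07) and Ctla4 (12.08 ± 0.02 against 11.86 ± 0.09) were read well above the 5.25 below which a probe set is called dim here. Foxp3 itself lay on a dim probe set (3.94 ± 0.12 against 3.90 ± 0.05). In bulk samples, fewer cells of a type and less RNA per cell cannot be told apart.

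Of the 10 ligands 5 were higher in the arrays labelled GATA3KO, 0 were lower, and 5 did not pass. Higher were Tnfsf14, Tnfsf13b, Tnfsf8, Tnfsf11 and Lta, by 1.28-fold to 1.65-fold. Ltb, Tnf, Fasl and Cd40lg had log2 changes between -0.08 and 0.04, and Tnfsf10 had one of -0.47 that did not pass. Over all genes 2.21% passed at a limma adjusted p under 0.05, of which the higher calls were 1.44% and the lower calls 0.766% of the genes. The median log2 change was 0.20 over the 10 ligands and 0.0078 over all genes, and nothing is read from this contrast because the genes were picked with it in view. In 5 ligands all arrays labelled GATA3KO read above all arrays labelled WT, and in 1, Tnfsf10, they read below. Over all genes the groups were apart in this way in 19.8%, with GATA3KO higher in 11.3% and lower in 8.51%.

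**Figure D1:**
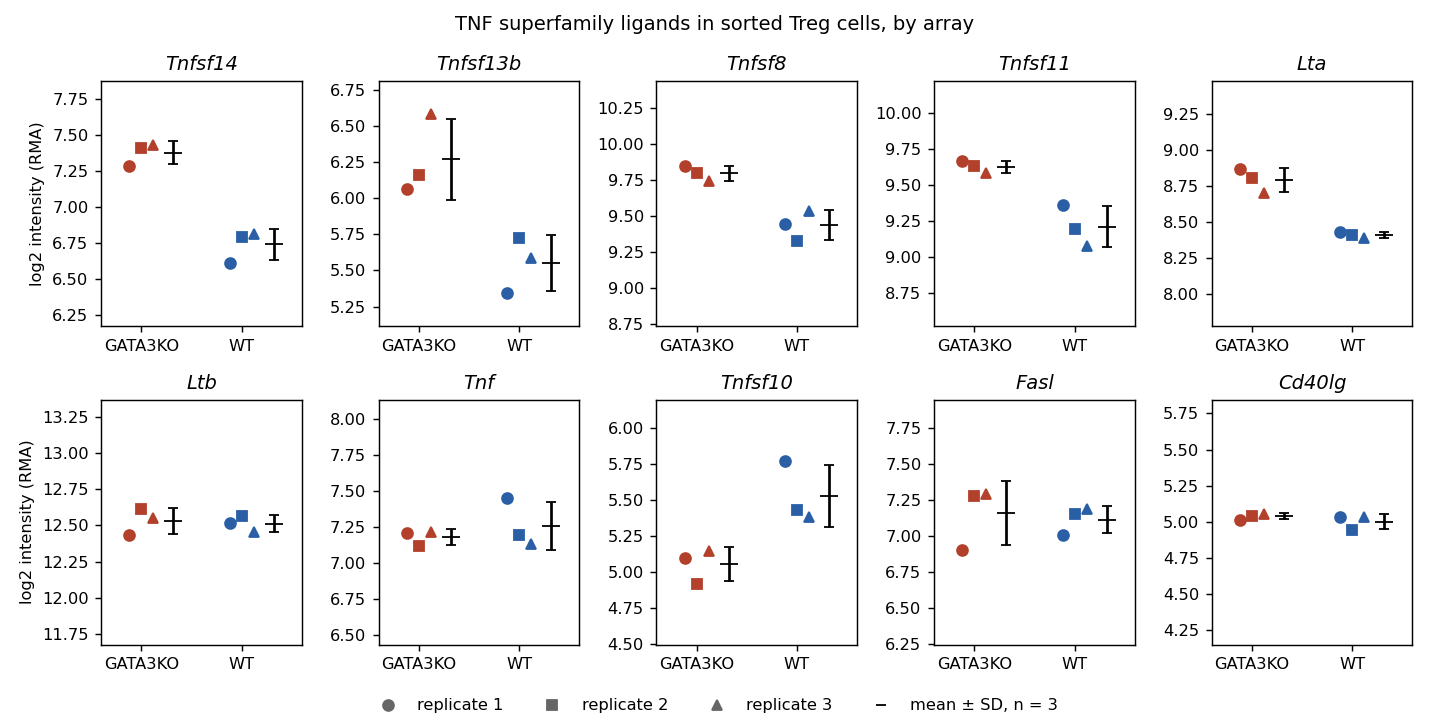
Log2 intensity (RMA) of the 10 ligands in each array, GATA3KO left and WT right, with symbols for the replicate number and the mean ± SD of 3 arrays beside them; each panel spans the same height. Tnfsf14, Tnfsf13b, Tnfsf8, Tnfsf11 and Lta sit higher in all 3 arrays labelled GATA3KO, Tnfsf10 lower, and the others overlap.

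Tnfsf14 encodes LIGHT, a costimulatory ligand of the receptors HVEM and lymphotoxin beta receptor. It read 7.29, 7.41 and 7.43 in the arrays labelled GATA3KO, against 6.61, 6.79 and 6.81 in the arrays labelled WT. The lowest array labelled GATA3KO lay 0.48 above the highest array labelled WT, the widest such gap among the 10 ligands. Means of 7.38 ± 0.08 in GATA3KO and 6.74 ± 0.11 in WT (SD, n = 3 each) made a 1.56-fold increase (log2 change 0.64 ± 0.08, SE, limma adjusted p = 0.00591). Tnfsf14 was the 1 ligand whose call held in all 6 fits with an array left out (adjusted p 0.0088 to 0.0367) and without the intensity trend (0.0283). Its other probe set is dim and read 4.94 ± 0.21 against 4.55 ± 0.18, with groups apart in the same direction and a log2 change of 0.40 ± 0.14, not past the threshold (adjusted p = 0.217).

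Tnfsf13b encodes BAFF, a survival factor of B cells that myeloid cells are a known source of. It read 6.06, 6.16 and 6.59 in the arrays labelled GATA3KO, against 5.34, 5.73 and 5.58 in those labelled WT. Replicate 3 of the arrays labelled GATA3KO read highest, and the groups did not overlap. The mean was 6.27 ± 0.28 in GATA3KO and 5.55 ± 0.20 in WT (SD, n = 3 each), or 1.65-fold higher (log2 change 0.72 ± 0.15, SE, adjusted p = 0.0417), the largest change of the 10 with the widest error. That Tnfsf13b call passed in 1 of 6 fits with an array left out, that without GATA3KO replicate 1. It was lost without any of the other arrays, with an adjusted p from 0.0938 to 0.11, and the change without GATA3KO replicate 3 was 0.56. It was also lost without the intensity trend (adjusted p = 0.118).

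Tnfsf8 encodes the ligand of CD30, a receptor of activated lymphocytes. Its values were 9.84, 9.80 and 9.74 in the arrays labelled GATA3KO and 9.44, 9.33 and 9.54 in the arrays labelled WT. Arrays labelled GATA3KO spread less than those labelled WT, and the groups lay 0.21 apart at their nearest. Tnfsf8 rose 1.28-fold (log2 change 0.36 ± 0.06, SE, adjusted p = 0.0185 by limma).

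Tnfsf11 encodes RANKL, known for driving osteoclast formation and lymph node and thymic epithelial development. Its values were 9.67, 9.63 and 9.58 in the arrays labelled GATA3KO and 9.36, 9.19 and 9.07 in those labelled WT. Again the arrays labelled WT were the more scattered, with a nearest distance of 0.22 between groups. Tnfsf11 rose 1.33-fold (log2 change 0.42 ± 0.07, SE, adjusted p = 0.0187). Its other probe set, not dim, read 7.73, 7.67 and 7.55 in the arrays labelled GATA3KO, against 7.46, 7.21 and 7.09 in those labelled WT. That probe set had nearly the same change with a larger error, and did not pass on its own (0.39 ± 0.10, adjusted p = 0.0869 over all probe sets).

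Lta encodes lymphotoxin alpha, which binds the TNF receptors as a soluble trimer and joins lymphotoxin beta on the cell surface to engage the lymphotoxin beta receptor. Its values were 8.87, 8.81 and 8.70 in the arrays labelled GATA3KO and 8.43, 8.41 and 8.39 in the arrays labelled WT. The arrays labelled WT were nearly equal (SD 0.02), and the groups were 0.27 apart at their nearest. Lta rose 1.30-fold (log2 change 0.38 ± 0.06, SE, adjusted p = 0.0116).

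The calls of Tnfsf8, Tnfsf11 and Lta each passed in 4 of 6 fits with an array left out. All 3 were lost without WT replicate 2 (adjusted p = 0.0744 for Tnfsf8, 0.101 for Tnfsf11 and 0.0644 for Lta) and without GATA3KO replicate 2 (0.0849, 0.0849 and 0.0651 in the same order). Without the intensity trend their adjusted p values were 0.104, 0.1 and 0.0702, and of the 5 calls only that of Tnfsf14 passed there. The highest array labelled GATA3KO was replicate 1 for Tnfsf8, Tnfsf11 and Lta and replicate 3 for Tnfsf14 and Tnfsf13b.

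Sequences upstream of the transcription start were also read, in every ligand that had a window. The windows hold the 250 bases before the start, from RefSeq on GRCm38.p6, and 9 of the 10 ligands had one (Cd40lg had none). Searched on both strands were GATAA or GATAG, the core of GATA factor sites; TGANTCA, a site of AP-1; TTTCC, the core of NFAT sites; and the NF-kB motif, which can overlap TTTCC. The GATA core stood in 3 of the 9 windows, those of Tnfsf13b, Tnfsf8 and Tnfsf11, and in 37.4% of all 32851 promoter windows. TGANTCA stood in 1 (Tnfsf14), against 6.75% of all windows, and the NF-kB motif in 1 (Ltb, which did not pass), against 7.25%. TTTCC stood in all 9, against 55.6% of all windows. A match is only a run of letters. Shown with GATA, AP-1 and NF-kB matches in capitals are the whole windows of Tnfsf14 and Tnfsf11 and 30-base stretches for Tnfsf13b, Tnfsf8 and Ltb, each read along the gene's strand.
Tnfsf14 (GRCm38.p6, chr17:57194182-57194431, minus strand): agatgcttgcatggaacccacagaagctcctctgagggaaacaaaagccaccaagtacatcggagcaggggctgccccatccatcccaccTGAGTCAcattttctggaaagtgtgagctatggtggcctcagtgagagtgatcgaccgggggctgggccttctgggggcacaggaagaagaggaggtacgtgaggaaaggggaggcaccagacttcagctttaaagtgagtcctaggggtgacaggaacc
Tnfsf11 (GRCm38.p6, chr14:78308044-78308293, minus strand): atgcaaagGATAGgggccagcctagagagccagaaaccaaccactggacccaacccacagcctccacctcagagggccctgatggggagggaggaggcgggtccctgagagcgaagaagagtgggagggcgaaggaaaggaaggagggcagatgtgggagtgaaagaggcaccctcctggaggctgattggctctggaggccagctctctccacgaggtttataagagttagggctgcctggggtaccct
Tnfsf13b (GRCm38.p6, chr8:10006346-10006375, plus strand): tcaagcactgagcTTATCtgacttgtacat
Tnfsf13b (GRCm38.p6, chr8:10006366-10006395, plus strand): acttgtacattaaTTATCgtttattacacc
Tnfsf8 (GRCm38.p6, chr4:63861295-63861324, minus strand): catcaaccatcgtCTATCtcgctacaattt
Ltb (GRCm38.p6, chr17:35194410-35194439, plus strand): aagggtgttcGGAAAGTCCCcgggcagggg

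In Tnfsf14 the AP-1 match began 160 bases before the start. The GATA core began 242 bases before it in Tnfsf11, 108 and 88 in Tnfsf13b and 27 in Tnfsf8. For Tnfsf13b, Tnfsf8 and Lta the annotated start used is not the outermost start of the gene, so these distances hold for that start only. The Tnfsf13b, Tnfsf8 and Ltb matches lie on the opposite strand, so the capitals above show their reverse complement.

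Lta, Tnf and Ltb are neighbours on chromosome 17 in GRCm38.p6, with Mir6973a the 1 other annotated gene between them, and Lta alone of the 3 passed. Ltb encodes lymphotoxin beta, the membrane partner of lymphotoxin alpha. It read 12.44, 12.61 and 12.55 in the arrays labelled GATA3KO and 12.52, 12.57 and 12.45 in the arrays labelled WT. The groups overlapped, and the 95% interval of the log2 change (0.02) ran from -0.10 to 0.13 (adjusted p = 0.913 by limma).

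Tnf encodes the inflammatory cytokine TNF. It read 7.21, 7.12 and 7.21 in the arrays labelled GATA3KO and 7.45, 7.19 and 7.13 in those labelled WT. WT replicate 1 read highest, and the other arrays overlapped. The log2 change was -0.08, with a 95% interval from -0.28 to 0.12 (adjusted p = 0.775). The interval for Lta, from 0.25 to 0.51, lay above those of both neighbours, and a difference between the genes' changes was not tested.

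The death ligands did not pass. Tnfsf10 encodes TRAIL, which induces apoptosis through the receptor encoded by Tnfrsf10b. It read 5.10, 4.92 and 5.15 in the arrays labelled GATA3KO, against 5.78, 5.43 and 5.38 in those labelled WT. The arrays labelled GATA3KO were all lower, by 0.23 at the nearest pair, on a probe set whose mean (5.29) is close to the dim limit. The log2 change was -0.47 ± 0.12 (SE), with a 95% interval from -0.75 to -0.19 and an adjusted p of 0.0931 by limma over all genes. It passed with array quality weights (0.0477) and in 0 of 6 fits with an array left out.

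Fasl encodes the ligand of the death receptor Fas. It read 6.90, 7.28 and 7.29 in the arrays labelled GATA3KO and 7.01, 7.15 and 7.18 in those labelled WT. The groups overlapped, with replicate 1 lowest in each. The log2 change was 0.04, with a 95% interval from -0.20 to 0.29 (adjusted p = 0.906), and the other Fasl probe set gave -0.16 ± 0.14 (SE, adjusted p = 0.68). The 2 Fasl probe sets thus differed in sign, neither past the threshold.

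Cd40lg encodes CD40 ligand, the signal by which helper T cells activate B cells and dendritic cells. Its probe set was dim, with values of 5.01, 5.04 and 5.06 in the arrays labelled GATA3KO and 5.03, 4.94 and 5.03 in those labelled WT. No difference was detectable with it (log2 change 0.04, 95% interval -0.16 to 0.24, adjusted p = 0.905).

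**Figure D2:**
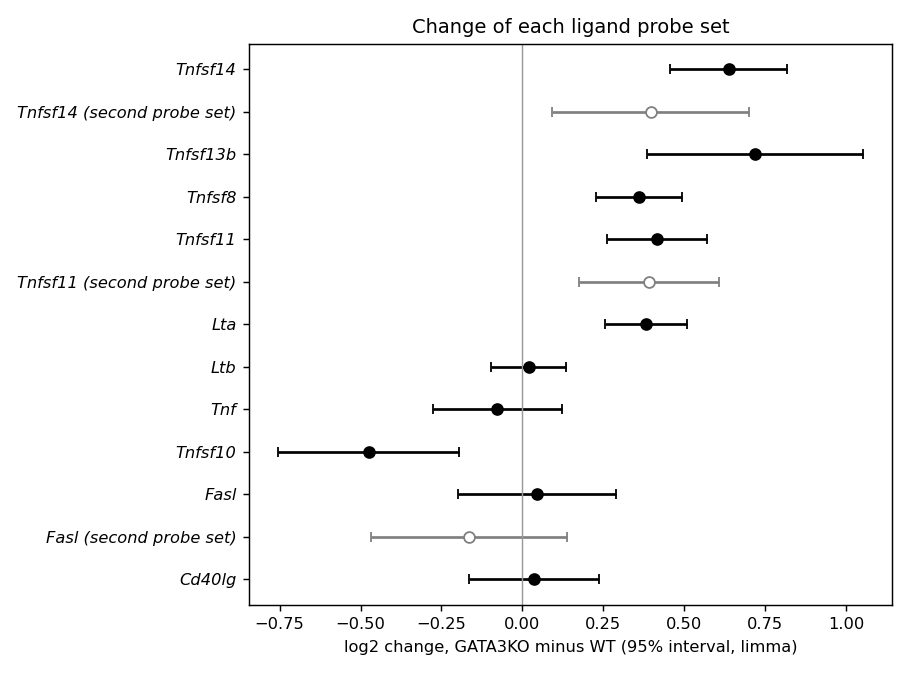
Log2 change, GATA3KO minus WT, of each ligand's probe set with its 95% interval from limma; filled points stand for the gene and open points are its other probe sets. The intervals of Tnfsf14, Tnfsf13b, Tnfsf8, Tnfsf11 and Lta lie above 0, that of Tnfsf10 below 0, and those of Ltb, Tnf, Fasl and Cd40lg span 0.

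Other ligands of the superfamily were measured for 4 of 8 listed genes, and 0 passed limma's threshold, adjusted or unadjusted. Over the 14 measured ligands, the 5 that rose are 35.7%. Tnfsf4, the OX40 ligand, had a log2 change of -0.01, Tnfsf9, the 4-1BB ligand, -0.05, and Cd70, the CD27 ligand, and Eda, ectodysplasin, had 0.05 and 0.09 on dim probe sets. The other 4 listed ligands were not analysed here.

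Among receptors of the 10 ligands, 0 of 15 measured genes passed limma's adjusted threshold, and 2 were higher at an unadjusted p under 0.05. The median log2 change was 0.10. Tnfrsf17, the BAFF receptor BCMA of plasma cells, had a change of 0.35 ± 0.12 (SE, adjusted p = 0.198) on a dim probe set. The other BAFF receptors had changes of 0.15 for Tnfrsf13b (TACI, adjusted p = 0.441) and -0.21 for the dim Tnfrsf13c (BAFF-R, adjusted p = 0.505), whose values were lower in all arrays labelled GATA3KO. Tnfrsf11a, the RANK receptor of Tnfsf11, had 0.32 ± 0.11 (adjusted p = 0.213), with values of 5.59, 5.34 and 5.34 in the arrays labelled GATA3KO against 4.96, 5.09 and 5.25 in those labelled WT. Fas (0.16) and Cd40 (0.16) followed Tnfrsf17 and Tnfrsf11a in order of p. In 4 of the 15 receptors, Tnfrsf17, Tnfrsf11a, Cd40 and the dim Tnfrsf10b, all arrays labelled GATA3KO read higher, and in 1, Tnfrsf13c, lower. Over all genes the groups were apart in this way in 11.3% and 8.51%. The receptors of the other ligands that rose did not pass. Their changes were 0.08 for Tnfrsf14 (HVEM), 0.10 for Ltbr, 0.0014 for the dim Tnfrsf8 (CD30), 0.12 for Tnfrsf1b and -0.08 for Tnfrsf1a. The median size of change over all genes was 0.079.

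Genes of receptor signalling had a median log2 change of -0.02 over 22 measured members, with 0 past limma's adjusted threshold. At an unadjusted p under 0.05, 2 were higher and 2 lower. Tnfaip3, which encodes the NF-kB inhibitor A20, had the largest, 0.37 ± 0.10 (SE, adjusted p = 0.102), with all arrays labelled GATA3KO higher (7.27 ± 0.02 against 6.89 ± 0.21 in those labelled WT, SD, n = 3 each). The adaptors Traf2 (-0.17) and Traf5 (0.13) and the TRAF-binding Tank (-0.13) came next in order of p. Genes that shed the ligands or bind their mRNA had a median of -0.02 over 12 measured members, with 0 past the adjusted threshold. At an unadjusted p under 0.05, 1 was higher and 2 were lower. Zfp36l2, a zinc finger protein that promotes mRNA decay, had 0.40 ± 0.10 (adjusted p = 0.0745), its relative Zfp36l1 -0.14 and the mRNA-binding Elavl1 -0.13. Rhbdf1, an inactive rhomboid on a dim probe set, had -0.26. Adam17, the protease that sheds TNF, had 0.09 (adjusted p = 0.56). Over all 53 measured genes of these 4 lists, 47 had a change of less than 0.2 in size, and 9 (17.0%) had an unadjusted p under 0.05, against 14.4% of all genes.

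**Figure D3:**
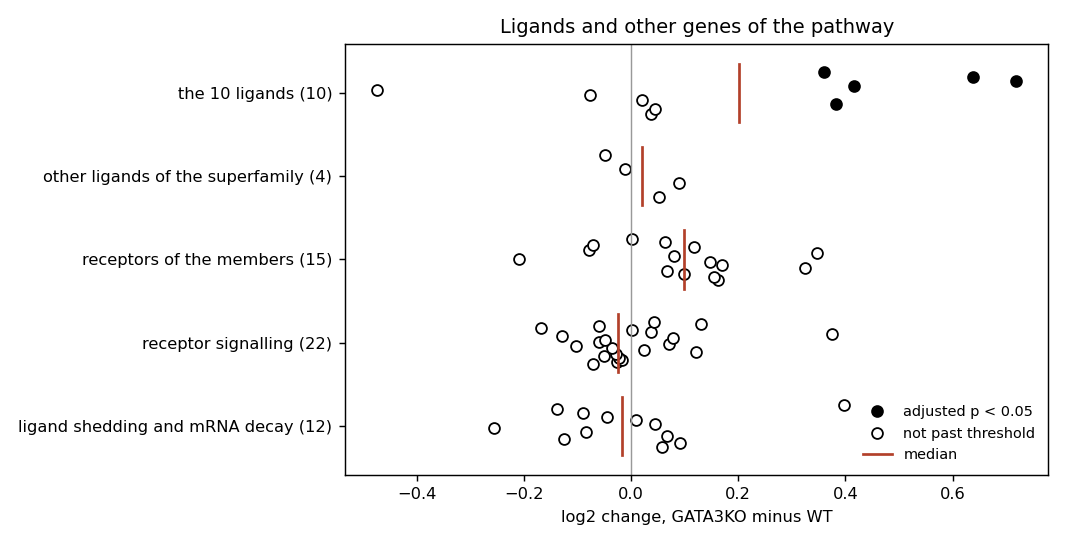
Log2 change, GATA3KO minus WT, of each measured gene in 5 lists (number of genes in brackets), with filled points at an adjusted p under 0.05 and a line at each median. Filled points stand in the row of the 10 ligands, and the medians of the other rows lie between -0.02 and 0.10.

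Marker genes of other leukocytes were read beside the ligands. The mean shift of 11 myeloid and dendritic markers from their mean in the arrays labelled WT was 0.10, 0.26 and 0.34 in replicates 1, 2 and 3 labelled GATA3KO, against 0.06, -0.06 and -0.005 in those labelled WT. Over 9 neutrophil markers it was 0.09, 0.29 and 0.67, against -0.08, 0.01 and 0.07. Tnfsf13b and Tnfsf14 had the same order over the 3 arrays labelled GATA3KO as both lists. So did Fasl and the dim Cd40lg, which did not pass, while Tnfsf8, Tnfsf11 and Lta had the opposite order. Over the arrays labelled WT, Tnfsf13b had the opposite order to the myeloid list. Tnfsf14 had the order of the neutrophil list there, as did Fasl. Tnfsf11, Lta, Tnf and Tnfsf10 had the opposite order to the neutrophil list. The part of these cells in the ligand values was not tested.

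Of the myeloid markers 0 of 11 passed limma's adjusted threshold and 3 were higher at an unadjusted p under 0.05. At that unadjusted p, 1070 of all 12394 genes were higher and 719 lower. As higher, 3 myeloid markers passed the adjusted threshold without GATA3KO replicate 1 and 2 with array quality weights. The mean log2 intensity of the myeloid markers ranged from 5.29 to 5.52 in the arrays labelled GATA3KO and from 5.13 to 5.25 in those labelled WT, with 4 of 11 dim. Lyz2 (1.02 ± 0.26, SE, adjusted p = 0.0849), Fcer1g (0.31), Tyrobp (0.47) and Adgre1 (0.28) had the smallest p. The dim Itgax, Itgam, Cd14 and Cd68 had changes of 0.11, -0.10, 0.03 and 0.02. On probe sets that are not dim, Csf1r had 0.33, Fcgr3 0.07 and Spi1 0.0018. Of the neutrophil markers 0 of 9 passed the adjusted threshold and 2 were higher at an unadjusted p under 0.05, with 6 dim. With the replicate block, with array quality weights and without GATA3KO replicate 1, 1 neutrophil marker passed as higher in each. Their mean ranged from 4.83 to 5.41 in the arrays labelled GATA3KO and from 4.66 to 4.81 in those labelled WT. S100a9 (1.10), the dim Ngp (0.74), Mmp9 (-0.19) and the dim S100a8 (0.64) had the smallest p.

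NK and CD8 T cells are known sources of Fasl and TRAIL. The mean shift of 7 of their markers was -0.31, -0.17 and -0.14 in the arrays labelled GATA3KO, against -0.04, 0.07 and -0.04 in those labelled WT. Tnfsf10 also read lower in the 3 arrays labelled GATA3KO. As both differed between the groups, that match was fixed by the grouping. Within those 3 arrays Tnfsf10 did not follow the order of the list, and Fasl (log2 change 0.04) overlapped between groups. The list's mean ranged from 5.56 to 5.73 in the arrays labelled GATA3KO and from 5.83 to 5.94 in those labelled WT, with 2 markers dim. Of the 7 markers 0 passed limma's adjusted threshold, and 2 were lower at an unadjusted p under 0.05. At that unadjusted p, 719 of all 12394 genes were lower and 1070 higher. Klrk1 (-0.57), Klrd1 (-0.71), Prf1 (-0.21) and Eomes (-0.10) had the smallest p. The other 3 markers, Cd8a (0.08), Ncr1 (0.03) and Cd8b1 (0.02), had small positive changes, so the lower mean came mainly from Klrk1 and Klrd1. With the replicate block 2 of the 7 were lower, and without WT replicate 1, 1 was. Whether these cells had a part in the Tnfsf10 values was not tested. Over 8 B cell markers, 6 of them dim, the groups overlapped, with mean shifts from -0.13 to -0.00076 in the arrays labelled GATA3KO against -0.06 to 0.06 in those labelled WT, and with 0 past the adjusted threshold and 1 (Cd79b, 0.23) higher at an unadjusted p under 0.05. Ms4a1 (-0.40), Fcer2a (-0.19) and Cd79a (-0.20) came next.

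**Figure D4:**
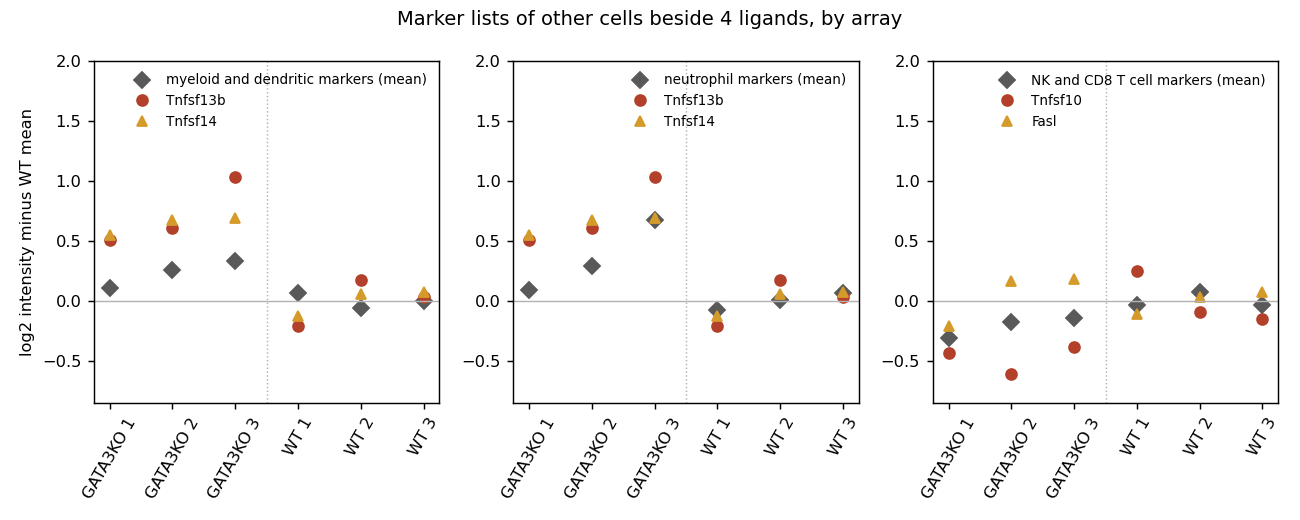
Mean shift of 3 marker lists (diamonds) and log2 intensity of 4 ligands, each minus its mean in the arrays labelled WT, by array. Tnfsf13b and the neutrophil markers read highest in GATA3KO replicate 3, at 0.67 for the markers, and the NK and CD8 T cell markers were lower in the arrays labelled GATA3KO, as was Tnfsf10.

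The list of 9 measured Treg and T cell markers had 1 gene past the threshold and a median log2 change of 0.12. All 9 changes were positive, and 5 were higher at an unadjusted limma p under 0.05, against 1070 of all 12394 genes. In 4 of the 9 all arrays labelled GATA3KO read higher, against 11.3% of all genes. The list's mean shift was 0.11, 0.17 and 0.13 in the arrays labelled GATA3KO, against 0.07, -0.06 and -0.01 in those labelled WT. A link to the ligand values was not tested. Tnfrsf4, the receptor OX40, rose (0.32 ± 0.05, SE, adjusted p = 0.0186 by limma), while Ctla4 (0.22, adjusted p = 0.0531), Il2ra (0.20) and Cd3g (0.12) did not pass. The Tnfrsf4 call was lost without the intensity trend, without WT replicate 2, without GATA3KO replicate 2 and without GATA3KO replicate 3, where the list had 0 calls, and its ligand Tnfsf4 is given above.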

How the data were processed

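Affymetrix arrays of 6 sorted Treg cell samples were used. Per the submitters' processing notes the authors used RMA (no version named), and the log2 scale was read from the deposited values. RMA corrects background, quantile normalizes and summarises probes. Groups came from the array titles. Of 22690 probe sets, 20393 had 1 annotated gene and gave 12394 genes, each by its probe set with the highest mean. No scanner file was used, so background and saturation were not read. A mean below the 40th percentile of probe sets (5.25) is called dim.

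Groups were compared as GATA3KO minus WT in R 4.3.3 with limma 3.58.1 (lmFit, eBayes with an intensity trend), two-sided, with Benjamini-Hochberg adjustment over all genes and a threshold of 0.05. Other probe sets were fitted with all single-gene probe sets. Intervals are 95%. Errors are SDs or limma's moderated SEs, and folds are computed from log2 changes. An exact permutation test of 3 against 3 could not reach 0.05. The fit was tested on simulated data.

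The ligands, gene lists and tests were chosen with earlier results of these data known. Named were all 10 ligands, Gata3, Foxp3 and, of each list, genes past the threshold and up to 4 with the smallest p; a few further list members were named for their role or marker use after their values were seen. Figures used matplotlib 3.10.9.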

Additional observations from a re-analysis of the deposited data

How the results depend on the processing

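The 5 higher calls among the ligands held at 5 under the replicate block, robust variance, array quality weights and with dim probe sets left out. They also did under median centring and renewed quantile normalization. With the mean of all probe sets of a gene they held too, but only Tnfsf14 and Tnfsf11 of the 5 have a second probe set. Testing every probe set, or leaving out those with shared sequences, kept the same probe sets for these 5 and so tried no other choice. At an adjusted p under 0.1 no further ligand was higher, and calls under 0.05 pass there by definition. Without the intensity trend 1 ligand was higher, and 31 genes were higher and 23 lower, against 179 and 95 with it. The cause was not tested. With array quality weights 1 ligand (Tnfsf10) was also lower, with 400 genes higher and 185 lower. At an adjusted p under 0.1 the ligands had 1 lower, and all genes 343 higher and 182 lower. With 1 array left out, 1 to 5 ligands were higher and 0 lower, and 35 to 165 genes were higher and 24 to 105 lower, where fewer arrays enter the fit. The ligands had 1 higher call without WT replicate 2 and 1 without GATA3KO replicate 2. No called ligand changed direction in any setting.

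The same replicate numbers are not stated to pair mice. As the labels give no shared mouse, litter or day, the numbers were not taken as pairs. Deviations of same-numbered arrays correlated at 0.04, -0.02 and 0.07, and those of differently numbered arrays at -0.063 to 0.0153. With the replicate block 5 ligands, and 234 genes higher and 134 lower, passed. The lists of other ligands, receptors and receptor signalling had 0 calls in all settings, and the shedding and mRNA decay list at most 1. Marker lists gained calls in some settings, up to 3 higher for myeloid, 1 higher for neutrophil and 2 lower for NK and CD8 T cell markers, while B cell markers had 0 in all. The Treg and T cell list had 0 to 3 higher calls. Precision was limited by 3 arrays per group, and Cd40lg, Foxp3 and several markers by dim probe sets.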
